A study of Mus musculus with 8 samples.

Results

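Ion channel genes were compared between leukaemic and normal progenitors of mouse bone marrow on 8 Affymetrix arrays. The members were the genes whose symbol starts with Kcn, Scn, Cacn, Clcn, Trpc, Trpm, Trpv or P2rx, each represented by its brightest probe set, that is the one whose log2 intensity averaged highest over all arrays. They were 156 of 18193 genes with a single symbol, and 329 probe sets read them. L-GMPs (4 arrays) came from leukaemic mice and carry the genotype label HoxA9+Meis1 AML, and GMPs (4 arrays) came from the marrow of normal mice. GMP usually stands for granulocyte-macrophage progenitor, a marrow cell that gives rise to neutrophils and monocytes, and both groups were sorted by flow cytometry. The labels give no strain, age or animal, so the p-values here reflect array-to-array spread alone, and that spread may be technical. The question is which transcripts set leukaemic cells of the progenitor gate apart from normal ones.

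Ion channels are membrane proteins that let selected ions cross down their gradients, opened by voltage, ligands, calcium, temperature or stretch. Potassium channels (Kcn) set the resting potential of most cells, and their pore-forming subunits fall into voltage-gated, calcium-activated, inwardly rectifying and 2-pore-domain families. Sodium (Scn) and calcium (Cacn) channels carry the action currents of nerve and muscle. Several members of the chloride family (Clcn) are exchangers of endosomes and lysosomes, TRP channels conduct cations, and P2X receptors (P2rx) are cation channels opened by extracellular ATP. In blood cells, potassium channels sustain the driving force for calcium entry, and P2RX7 is best known as the ATP trigger of inflammasome activation in macrophages. The rule takes names, so it also holds genes that are no channels, such as Scnm1, which encodes a splicing protein, Trpc4ap, an adaptor of a ubiquitin ligase, and Kcnq1ot1, a non-coding RNA that is counted here with the voltage-gated symbols.

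Values are log2 RMA intensities, a scale on which a difference of 1 is a 2-fold change, and differences are L-GMP minus GMP. Signals of different probe sets cannot be compared as RNA amounts. Correlations over all probe sets were 0.983 to 0.994 within groups and 0.967 to 0.974 between groups. L-GMP replicate B stood apart from the other L-GMP arrays on the second principal component (11.4% of the variance), and GMP replicate D had the widest gap between the Gapdh control probe set of the 3' end and that of the 5' end (2.74, against 1.24 to 1.76 on the other arrays). Mpo, the myeloperoxidase of this gate, was strong in L-GMPs (13.2 ± 0.09) and in GMPs (13.6 ± 0.04; SD, n = 4 each), though lower in L-GMPs (difference -0.39, adjusted p = 0.0196 by limma). Of the B cell genes, Ms4a1 stood at 2.93 in L-GMPs and 2.92 in GMPs, and Cd79a at 4.27 and 3.95. Cd79b was bright in both, at 7.66 in L-GMPs and 8.06 in GMPs. Of the genes of the leukaemia's label, the brightest probe set of Hoxa9 averaged 11.6 in L-GMPs and 6.79 in GMPs. That of Meis1 averaged 4.04 in L-GMPs and 7.09 in GMPs, which goes against the label, although the transcript region that it reads is not known here. Markers of other cells differed between the groups: the summed linear intensity of 11 eosinophil, basophil and mast cell markers was 695 to 1568 in L-GMPs and 4521 to 11062 in GMPs (8 lower, 0 higher). That of 8 monocyte and macrophage markers was 8751 to 12576 in L-GMPs and 4433 to 5032 in GMPs (6 higher, 0 lower). Of 7 megakaryocyte markers 4 were lower (186 to 258 against 471 to 1976), of 5 erythroid markers 1 was lower (106 to 140 against 139 to 272), and of 8 neutrophil markers 2 were lower (251 to 1235 against 843 to 4229). Of 7 lymphoid markers 0 passed (236 to 362 against 342 to 388). Of 9 progenitor markers 5 were lower (24259 to 28857 against 36506 to 38801). By the same test 7.27% of all genes were lower and 4.78% higher. In sorted bulk cells, fewer cells of a type and less RNA per cell cannot be told apart.

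Of the 156 ion channel genes, 11 passed the threshold of an adjusted p of 0.05 in limma's moderated test over all 18193 genes, 5 higher and 6 lower in L-GMPs. That is 7.05% of the members, against 12.1% of all genes. The share of higher calls was 3.21% (4.78% of all genes) and that of lower calls 3.85% (7.27% of all genes). Clcn7, Kcnj11, Clcn6, Clcn3 and Trpm2 rose, and Kcnj5, Cacnb2, P2rx7, P2rx4, Scnn1a and Kcnk5 fell. The groups did not overlap in 23 members, 13 higher and 10 lower. Over all genes 18.2% had no overlap, 8.53% higher and 9.71% lower. The median difference of the members was 0.05, that of all genes 0.01. The split moved with the scaling between arrays. With arrays centred on their medians, 16 of 22 member calls were higher, and so were 2161 of 3084 calls over all genes (70.1%). With quantile normalization 11 of 17 member calls were higher, and 1252 of 2531 over all genes (49.5%). In the fit without either, the share over all genes was 39.7%. The median difference of all genes became 0.15 with centring, so small rises hold only relative to that shift. The 11 genes passed in the same direction under both scalings.

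**Figure D1:**
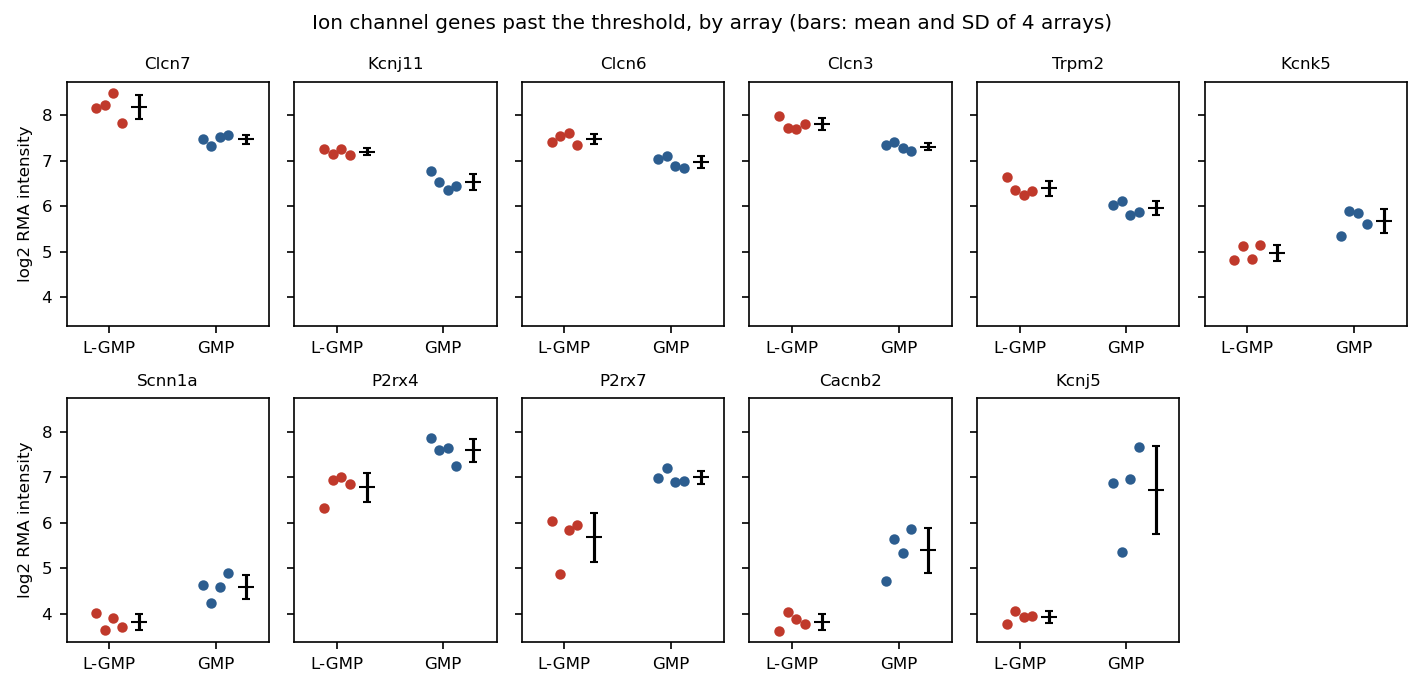
Log2 RMA intensity of the 11 ion channel genes past the threshold on each array, L-GMP in red and GMP in blue, with the mean and SD of 4 arrays as bars. The 4 L-GMP arrays lie clear of the 4 GMP arrays in every panel, and the GMP values of Kcnj5 spread most.

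Most members had dim probe sets. The mean over all arrays lay above the arrays' median signal in 48 of 156 members (30.8%), against 10534 of 18193 genes (57.9%). In 34 members (21.8%) neither group mean reached the lower quartile of the arrays, against 16.3% of all genes. When all genes were divided by mean signal into 4 equal bins, 61 members were in the lowest bin, 64 in the second, 25 in the third and 6 in the top bin. The calls came from the second and the third bin. In the third bin 7 of 25 members passed (28%), against 20.3% of all genes there. In the second bin 4 of 64 passed (6.25%), against 12.7%. The lowest bin gave 0 of 61 (3.32% of all genes there) and the top bin 0 of 6 (11.9%). No filter on low signal was used, so all 156 members were tested.

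**Figure D2:**
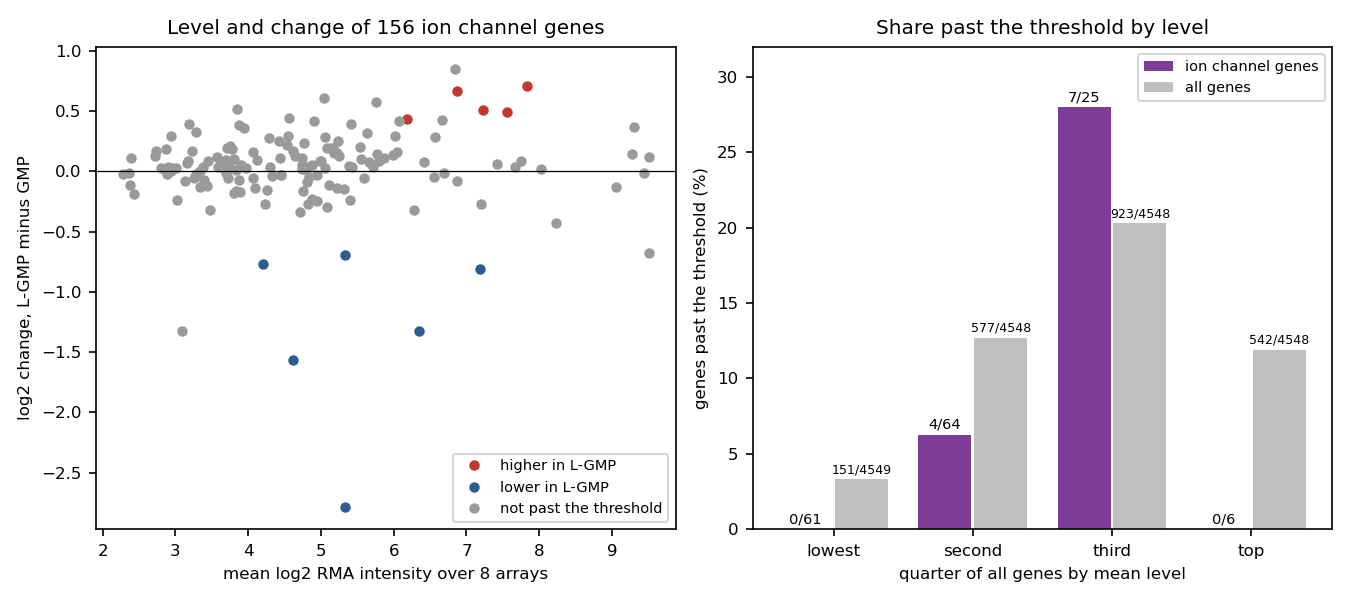
Left, difference between the groups (L-GMP minus GMP, log2) against the mean signal of each of the 156 members over 8 arrays. Right, the percentage of genes past the threshold in each of 4 equal bins of mean signal, for ion channel genes and for all genes, with counts above the bars. The members' share is highest in the third bin (7 of 25).

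Among the chloride channel and exchanger genes, 3 of 7 rose and 0 fell, with a median difference of 0.29. Over all genes 12.1% were called and 4.78% were higher. Clcn7 encodes a chloride/proton exchanger of lysosomes and of the osteoclast's resorbing membrane. Its log2 values were 8.17, 8.22, 8.50 and 7.84 in L-GMPs and 7.47, 7.33, 7.52 and 7.57 in GMPs. Every L-GMP array was higher than every GMP array, a difference of 0.71 (SE 0.14, 1.64-fold, adjusted p = 0.00769). The mean of the Clcn7 probe sets gave 0.39 (adjusted p = 0.0164). Clcn6, an exchanger of late endosomes, had 7.42, 7.55, 7.61 and 7.36 in L-GMPs and 7.05, 7.11, 6.88 and 6.85 in GMPs. It rose by 0.51 (SE 0.11, adjusted p = 0.0107), without overlap. Clcn3, an endosomal exchanger, had 7.99, 7.73, 7.69 and 7.80 in L-GMPs and 7.36, 7.41, 7.28 and 7.21 in GMPs. Its rise of 0.49 (SE 0.10, adjusted p = 0.0114) also left the groups apart.

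The other Clcn genes did not pass. Clcn4 and Clcn5 encode endosomal exchangers as well. Clcn4 had a difference of 0.04 (adjusted p = 0.849), and Clcn5 one of 0.29 (adjusted p = 0.358), with GMP replicate A the lowest array (5.87, others 6.35 to 6.90). The mean of the Clcn5 probe sets gave -0.08 (adjusted p = 0.69). Clcn1 and Clcn2, channels of the plasma membrane, had differences of 0.19 and -0.03. Ostm1, the accessory subunit that CLCN7 needs for stability, is outside the name rule. It averaged 9.75 ± 0.31 in L-GMPs and 9.27 ± 0.19 in GMPs (SD, n = 4 each), and its difference of 0.47 did not pass (adjusted p = 0.0875). The rises of the Clcn genes stand beside the higher monocyte and macrophage markers in L-GMPs, and the part of such cells in them was not tested.

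Several lysosomal genes share the palindrome TCACGTGA around their start, the core of the element bound by the MiT/TFE factors TFEB, TFE3 and MITF. The promoters of the 3 Clcn genes that rose are shown because they differ in this element. Sequences are from RefSeq on GRCm38.p6, 250 bases before to 50 bases after the first listed start, 5′ to 3′ on the gene's strand, with capitals at CACGTG or TCACGTGA.
Clcn7 (chr17:25133141-25133440, plus strand): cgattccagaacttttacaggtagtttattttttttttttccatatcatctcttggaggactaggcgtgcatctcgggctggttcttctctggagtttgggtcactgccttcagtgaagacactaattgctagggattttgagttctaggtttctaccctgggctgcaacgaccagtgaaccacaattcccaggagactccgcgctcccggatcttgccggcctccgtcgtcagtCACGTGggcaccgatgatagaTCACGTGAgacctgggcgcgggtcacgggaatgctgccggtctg
Clcn6 (chr4:148038764-148039063, minus strand): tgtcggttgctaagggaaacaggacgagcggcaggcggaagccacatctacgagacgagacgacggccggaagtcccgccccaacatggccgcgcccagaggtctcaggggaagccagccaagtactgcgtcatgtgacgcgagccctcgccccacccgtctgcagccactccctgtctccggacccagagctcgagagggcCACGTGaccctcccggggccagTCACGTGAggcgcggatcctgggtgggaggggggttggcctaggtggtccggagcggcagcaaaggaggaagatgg
Clcn3 (chr8:60983262-60983561, minus strand): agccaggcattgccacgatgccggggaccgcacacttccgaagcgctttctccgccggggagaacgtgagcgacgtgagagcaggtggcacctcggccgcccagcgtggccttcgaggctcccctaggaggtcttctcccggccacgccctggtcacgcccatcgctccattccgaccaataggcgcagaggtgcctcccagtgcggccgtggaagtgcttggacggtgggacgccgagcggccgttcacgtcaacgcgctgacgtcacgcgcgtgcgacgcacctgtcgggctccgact

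The Clcn7 promoter at the first listed start held CACGTG at bases 236 to 241 and TCACGTGA at bases 257 to 264 of the window. The Clcn6 promoter held CACGTG at bases 203 to 208 and TCACGTGA at bases 225 to 232. The Clcn3 window held neither. Clcn7 and Clcn3 each had 2 listed starts, and the windows of their second starts, not shown, also held neither. TCACGTGA, which reads the same on both strands and contains CACGTG, was in 0.974% of all 32851 promoters. Of the 166 promoters listed for 122 members it was in 3 (1.81%), those of Clcn6, Clcn7 and Trpm7. CACGTG was in 7.15% of all promoters and in 6.63% of the members' promoters, those of Clcn4, Kcnk5, Kcnn4 and Kcnj2 among them. A match is a string of letters, not a bound site. The factor genes did not move together: Mitf averaged 6.13 ± 0.39 in L-GMPs and 7.24 ± 0.32 in GMPs (SD, n = 4 each; difference -1.10, adjusted p = 0.0063), Tfeb averaged 6.73 and 6.31 (difference 0.42, adjusted p = 0.0593), and Tfe3 averaged 7.55 and 7.44 (difference 0.10, adjusted p = 0.533).

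Of the 7 P2X receptor genes, 2 fell and 0 rose, while 7.27% of all genes fell and 4.78% rose. P2rx7, the low-affinity ATP receptor, had log2 values of 6.04, 4.88, 5.85 and 5.96 in L-GMPs and 6.99, 7.21, 6.89 and 6.93 in GMPs. It fell by 1.33 (SE 0.23, 2.51-fold, adjusted p = 0.00375), and the groups lay apart with L-GMP replicate B lowest. Without that array the difference was -1.06 (adjusted p = 0.000239). All 3 probe sets of P2rx7 were lower in L-GMPs, with differences of -1.33, -1.84 and -0.78, and each passed when every probe set was tested. P2rx4, a receptor found on lysosomes and the surface of macrophages, had 6.32, 6.95, 6.999 and 6.86 in L-GMPs and 7.87, 7.60, 7.65 and 7.25 in GMPs. It fell by 0.81 (SE 0.17, adjusted p = 0.0131). A second P2rx4 probe set fell by 1.16 (adjusted p = 0.000794), and the 2 dimmest changed by -0.10 and -0.03, neither past the threshold.

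P2rx7 and P2rx4 are neighbours in the RefSeq gene table, with no protein-coding gene between them. Among 21 pairs of neighbouring members this was the only one with both genes past the threshold. The protein-coding genes on either side did not pass: Ift81 had a difference of -0.14 (adjusted p = 0.58) and Camkk2 one of -0.38 (adjusted p = 0.333). P2rx1, the receptor of platelets and neutrophils, averaged 6.52 ± 0.47 in L-GMPs and 6.57 ± 0.10 in GMPs (SD, n = 4 each), a difference of -0.05 (adjusted p = 0.906). P2rx3, best known from sensory neurons, was lower on every L-GMP array (4.47 to 4.58) than on any GMP array (4.61 to 5.14), but did not pass (adjusted p = 0.0905). P2rx7 is also expressed by mast cells and macrophages. Most of the eosinophil, basophil and mast cell markers were lower in L-GMPs, and most of the monocyte and macrophage markers were higher. The part of any of these cells in the fall was not tested.

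Of 15 inward rectifier genes, 1 rose and 1 fell (13.3% called, against 12.1% of all genes). Median centring added calls for Kcnj8, Kcnj9 and Kcnj12. Kcnj5 encodes a subunit of the G protein-gated channel of the heart. It had log2 values of 3.77, 4.07, 3.94 and 3.96 in L-GMPs and 6.88, 5.36, 6.96 and 7.67 in GMPs. The L-GMP arrays lay just above the arrays' lower quartile (3.65 to 3.75) and the GMP arrays well above it, with GMP replicate B the lowest of them. Kcnj5 fell by 2.79 (SE 0.38, 6.90-fold, adjusted p = 9e-04) in this probe set. The other Kcnj5 probe set was dim in L-GMPs (3.70) and in GMPs (3.51) and did not pass (adjusted p = 0.538), and the mean of both gave -1.30 (adjusted p = 0.00102). Without GMP replicate B the difference was -3.24. Kcnj3, which encodes the partner subunit, stood at 2.87 in L-GMPs and 2.89 in GMPs. The adjacent member Kcnj1 had a difference of 0.15 (adjusted p = 0.411). Arhgap32, the gene on the other side and no channel, was lower too, at 5.24 ± 0.17 in L-GMPs and 7.12 ± 0.30 in GMPs (SD, n = 4 each; adjusted p = 2.36e-05). Among GMP arrays Kcnj5 was highest in replicate D, the array with the widest Gapdh gap, and without it the difference was -2.47 (adjusted p = 0.00218). Several megakaryocyte markers and most of the eosinophil, basophil and mast cell markers were also lower in L-GMPs. The part of these cells in the Kcnj5 result was not tested.

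Kcnj11 encodes the pore of the ATP-sensitive potassium channel, which links metabolism to membrane potential in the beta cell. Its log2 values were 7.27, 7.16, 7.26 and 7.12 in L-GMPs and 6.78, 6.54, 6.36 and 6.45 in GMPs. It rose by 0.67 (SE 0.11, 1.59-fold, adjusted p = 0.00314) with no overlap. Its dimmer probe set gave -0.05 (adjusted p = 0.796). The sulfonylurea receptor genes, whose products surround this pore, did not pass: Abcc8 had a difference of 0.28 (adjusted p = 0.143) and Abcc9 one of -0.12 (adjusted p = 0.497). Kcnj13, named for the highest mean signal in its family, had a difference of 0.06, and Kcnj2, the classical inward rectifier of macrophages, one of 0.04.

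The remaining potassium channel genes gave a single call. Of all 84 Kcn symbols 3.57% were called, against 12.1% of all genes. Kcnk5, an acid-sensitive 2-pore-domain channel also known from T cells, had 4.82, 5.12, 4.83 and 5.14 in L-GMPs and 5.34, 5.90, 5.86 and 5.61 in GMPs. It fell by 0.70 (SE 0.15, adjusted p = 0.0111), and the mean of its probe sets lost the call (-0.45, adjusted p = 0.0626). Kcnk6 and Kcnk13 of the same family had differences of 0.08 and -0.17, neither past the threshold. Of 32 voltage-gated symbols 0 passed, with differences of -0.32 to 0.44, and 4 of the 32 had groups that did not overlap, against 18.2% of all genes. This count depended on the scaling. Median centring added calls for Kcna6, Kcng1, Kcnh3, Kcnh7 and Kcns2, and quantile normalization added Kcna6, Kcng1 and Kcnh3. Kcna3, the voltage-gated channel of lymphocytes and macrophages, averaged 6.12 ± 0.49 in L-GMPs and 6.43 ± 0.20 in GMPs (SD, n = 4 each; adjusted p = 0.395). Kcnq5 had a difference of 0.36 (adjusted p = 0.312) and Kcnh2, the HERG channel, one of -0.03. Without GMP replicate A the Kcnq5 difference was 0.58 (adjusted p = 0.0306). Kcnh7 had the largest difference in the family, 0.44 (adjusted p = 0.117), and 0.58 (adjusted p = 0.0382) after median centring.

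Of 8 calcium- or sodium-activated potassium channel genes 0 passed. Kcnn3 passed after median centring and after quantile normalization, and Kcnt1 after quantile normalization. Kcnn4 encodes the intermediate-conductance channel of red cells, lymphocytes and mast cells. Its log2 values were 8.92, 9.51, 9.63 and 8.64 in L-GMPs and 10.2, 9.81, 9.80 and 9.60 in GMPs. The ranges overlapped only between L-GMP replicate C and GMP replicate D, and the difference of -0.67 (SE 0.22) had an adjusted p of 0.0727. It passed without L-GMP replicate B (0.047) or C (0.0392). Of 17 accessory symbols 0 passed. Kcnip3, a calcium sensor that also acts as a transcriptional repressor, had a difference of -0.43 (adjusted p = 0.141), which passed without L-GMP replicate C (-0.59, adjusted p = 0.029). Kcnab2, a beta subunit of voltage-gated channels, had a difference of 0.02 and Kcne3 one of 0.42 (adjusted p = 0.292).

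**Figure D3:**
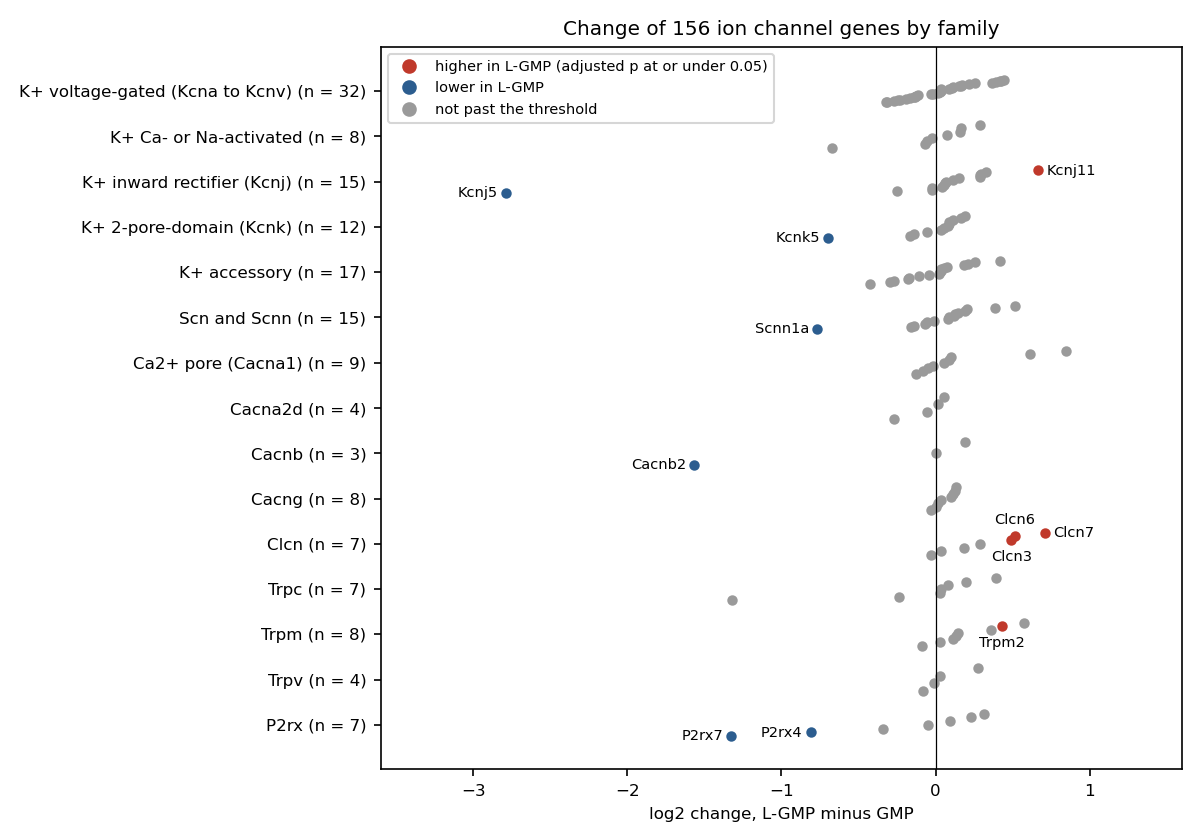
Difference of each of the 156 members (L-GMP minus GMP, log2) by family, with the number of members in brackets and the genes past the threshold named, higher in red and lower in blue. Most families centre near 0, the Clcn genes lie mostly to the right, and Kcnj5, Cacnb2 and P2rx7 lie farthest to the left among the genes called.

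Of 24 genes with a Cacn symbol 1 fell and 0 rose (4.17% called, against 12.1% of all genes). Cacnb2 encodes a beta subunit, which carries the pore subunit to the membrane. It had log2 values of 3.62, 4.03, 3.88 and 3.78 in L-GMPs and 4.72, 5.64, 5.33 and 5.88 in GMPs. It fell by 1.57 (SE 0.22, 2.96-fold, adjusted p = 0.000999), to L-GMP values around the arrays' lower quartile. Its second probe set fell by 1.52 (adjusted p = 0.000268). Cacnb1, named for the highest mean signal among beta subunits, had a difference of 0.19 (adjusted p = 0.497), and Cacnb4 one below 0.01 at a signal of 2.94 in both groups. The 4 alpha2delta genes and the 8 gamma genes gave 0 calls, with differences of -0.27 to 0.06 and of -0.03 to 0.14. The widest of these were Cacna2d2, which ranged from 5.85 to 8.37 in L-GMPs and from 6.99 to 7.93 in GMPs, and Cacng8 (0.14, adjusted p = 0.429).

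Among the 9 pore subunits (Cacna1) 0 passed under the rule of 1 probe set per gene. Cacna1b, described below, passed after median centring (adjusted p = 0.0403). Cacna1d, the L-type channel of pacemaker and endocrine cells, averaged 9.43 ± 0.32 in L-GMPs and 9.45 ± 0.06 in GMPs (SD, n = 4 each). Cacna1f, the L-type channel of the retina, had the largest difference, 0.85 (adjusted p = 0.307). It rested on L-GMP replicate A (8.98, against 5.95 to 7.23 on the other L-GMP arrays and 6.30 to 6.60 in GMPs). Without that array the difference was 0.28 (adjusted p = 0.576).

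Cacna1b, the N-type channel of nerve endings, was added after its values were seen, because its probe sets differed. The probe set chosen by the rule had log2 values of 5.33, 4.90, 5.83 and 5.32 in L-GMPs and 4.87, 4.34, 4.64 and 5.08 in GMPs, a difference of 0.61 that did not pass (adjusted p = 0.0828; 0.0288 without L-GMP replicate B). A probe set with a lower overall mean had 6.79, 4.44, 8.07 and 6.84 in L-GMPs and 2.80, 2.99, 3.17 and 2.90 in GMPs. There Cacna1b rose by 3.57 (SE 0.58, adjusted p = 0.00292), with every L-GMP array above every GMP array. Another had 7.06, 3.91, 8.08 and 6.88 in L-GMPs and 3.37, 3.52, 2.83 and 3.93 in GMPs. Its rise of 3.07 (SE 0.70, adjusted p = 0.0174) had an overlap through L-GMP replicate B. The remaining Cacna1b probe set rose by 0.56 (adjusted p = 0.0119). L-GMP replicate B was the lowest L-GMP array in both probe sets with large rises, and without it these rises were 4.27 (adjusted p = 5.39e-06) and 3.93 (adjusted p = 2.38e-05). The mean of the 4 probe sets gave 1.95 (adjusted p = 0.00584). Most GMP values of these 2 probe sets lay below the lower quartile of the arrays, so the size of the rises is uncertain. The neighbours Ehmt1 (difference -0.19) and Pax8 (-0.07) did not pass.

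**Figure D4:**
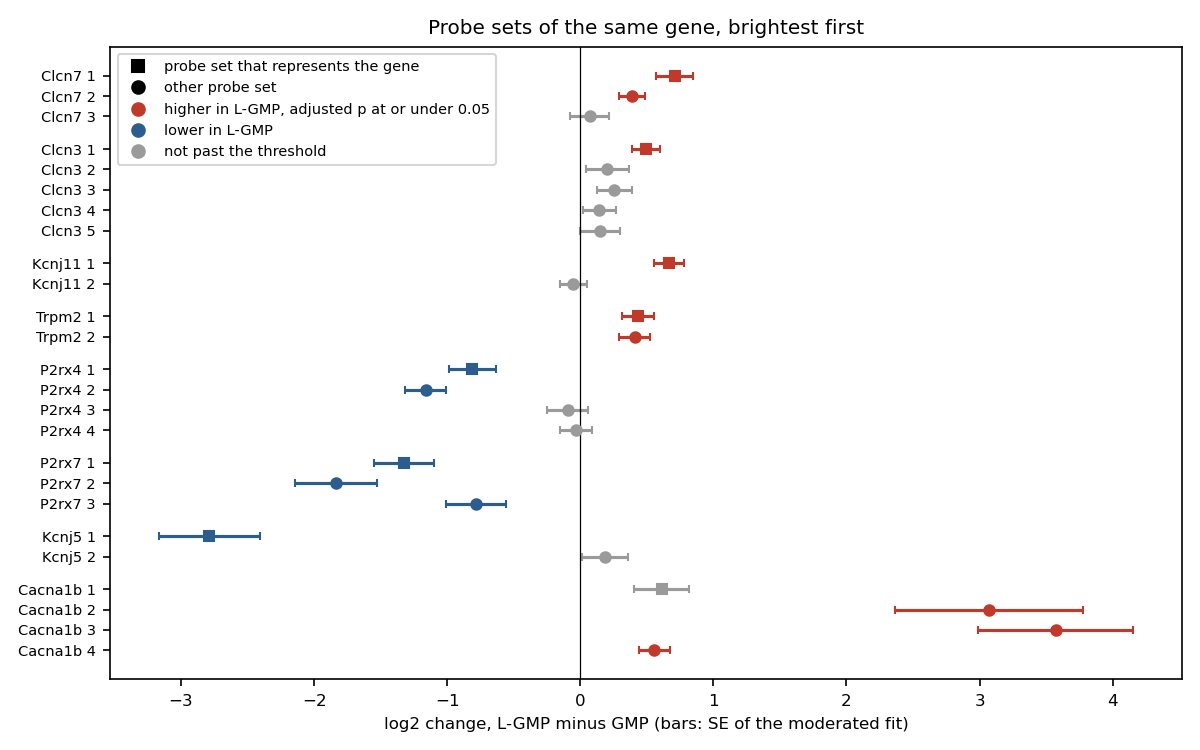
Difference between the groups (L-GMP minus GMP, log2, with the SE of the moderated fit) for every probe set of 8 members, numbered from the brightest, squares marking the probe set that represents the gene. All P2rx7 probe sets lie left of 0 and all Cacna1b probe sets right of it, 2 of them beyond 3, while Kcnj5 and Kcnj11 each have 1 probe set near 0.

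Of the 11 genes past the threshold, 10 had several probe sets. In 5 of these (Cacnb2, Clcn7, P2rx4, P2rx7 and Trpm2) a second probe set passed in the same direction, and in 0 did one pass in the opposite direction. The other Clcn3 probe sets gave 0.14 to 0.25, none past the threshold, and the mean of all 5 lost the call (0.25, adjusted p = 0.109). Among members not called, Cacna1a, Cacna1b, Kcnh3, Kcnmb2 and Trpc4ap had a probe set past the threshold in the fit over every probe set.

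Of the 15 Scn and Scnn genes 1 fell (6.67% called, against 12.1% of all genes). Scnn1a, the alpha subunit of the epithelial sodium channel, had log2 values of 4.01, 3.65, 3.90 and 3.71 in L-GMPs and 4.64, 4.24, 4.58 and 4.89 in GMPs. It fell by 0.77 (SE 0.15, adjusted p = 0.00689), at signals near the arrays' lower quartile. Its partner subunits Scnn1b and Scnn1g had differences of 0.09 and 0.08, and its neighbours Tnfrsf1a and Ltbr of -0.24 and 0.24, none past the threshold. The voltage-gated sodium channel genes gave 0 calls, and Scnm1 had a difference of 0.12 (adjusted p = 0.53).

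Of the 19 TRP symbols 1 rose (5.26% called, against 12.1% of all genes). Trpm2, a calcium-permeable channel of phagocytes opened by ADP-ribose and oxidative stress, had 6.64, 6.35, 6.25 and 6.34 in L-GMPs and 6.04, 6.13, 5.81 and 5.88 in GMPs. It rose by 0.43 (SE 0.12, 1.35-fold, adjusted p = 0.0393), and its second probe set rose by 0.41. The call was the least stable of the 11: it was lost without any single array other than L-GMP replicate C or GMP replicate A (adjusted p 0.0507 to 0.107). Most of the monocyte and macrophage markers were higher in L-GMPs, and the part of such cells in this rise was not tested. Trpm4, a calcium-activated cation channel of immune cells, averaged 6.04 ± 0.33 in L-GMPs and 5.47 ± 0.32 in GMPs (SD, n = 4 each). Its difference of 0.57 did not pass (adjusted p = 0.0847) but did without GMP replicate D (0.73, adjusted p = 0.037) and after median centring (0.71, adjusted p = 0.0258). Trpm7, a channel with a kinase domain that takes up magnesium, had a difference of 0.15 (adjusted p = 0.399).

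Trpc6, a receptor-operated channel also found in platelets, was at 2.68, 2.35, 2.41 and 2.28 in L-GMPs and 4.98, 2.71, 2.89 and 4.41 in GMPs. The 4 L-GMP arrays were the lowest, but only GMP replicates A and D were clearly above them, and the difference of -1.32 (SE 0.44) did not pass (adjusted p = 0.0777). Its size is uncertain, since every L-GMP value was under the 10th percentiles of the arrays, which were 2.84 to 2.92. It passed without GMP replicate B (-1.67, adjusted p = 0.0359). The megakaryocyte marker sum was also highest in GMP replicates A (1976) and D (996) and lower in B (471) and C (785), and its part in the Trpc6 values was not tested. Trpc4ap had a difference of 0.08. The mean of its probe sets gave 0.23 (adjusted p = 0.0993), and another Trpc4ap probe set passed in the fit over every probe set. Trpv2, the TRPV channel best known in macrophages and mast cells, was at 6.69 ± 0.23 in L-GMPs and 6.70 ± 0.18 in GMPs (SD, n = 4 each), and Trpv4 had a difference of 0.27 (adjusted p = 0.406).

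Genes of ion transport outside the name rule were counted in 4 lists. Of 39 measured store-operated and intracellular calcium genes, 3 fell and 0 rose, a share of 7.69% (12.1% of all genes were called and 7.27% fell). Itpr2, an intracellular calcium release channel, had 5.76, 5.56, 5.26 and 5.83 in L-GMPs and 7.47, 7.20, 7.18 and 7.18 in GMPs, with no overlap. It fell by 1.66 (SE 0.14, adjusted p = 2.52e-05), while the mean of its probe sets gave -0.68 (adjusted p = 0.00045). Slc8b1, the mitochondrial sodium/calcium exchanger, fell by 0.66 (adjusted p = 0.011), a call lost after quantile normalization (-0.50, adjusted p = 0.0502). Camk2d, a calmodulin-dependent kinase, fell by 0.92, but its call (adjusted p = 0.0337) was lost on leaving out any array but L-GMP replicate B and GMP replicate A (0.0639 to 0.101). The store-operated channel Orai1 (difference -0.01, adjusted p = 0.982) and its sensor Stim1 (-0.03, adjusted p = 0.903) did not pass.

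Of 39 measured genes listed as other channels, which include accessory subunits such as Ostm1, 4 rose and 3 fell. That is 17.9%, against 12.1% of all genes, and leaving out single arrays gave 3 to 7 calls. Ttyh2, a protein of the tweety family, fell by 1.41 (SE 0.11, adjusted p = 1.52e-05). Ano6, the scramblase and ion channel that exposes phosphatidylserine, rose by 0.51 (SE 0.10, adjusted p = 0.00821). Tmem38b, a cation channel of the endoplasmic reticulum, rose by 0.55 (SE 0.12, adjusted p = 0.0135). The rise of Tmem38a (0.52) and the falls of Panx1 (0.41 on the log2 scale), the pannexin that releases ATP, and of Lrrc8a (0.39), the essential subunit of the volume-regulated anion channel, were small, and each call was lost without at least 5 of the 8 arrays taken singly. The calls of Panx1 (adjusted p = 0.0924) and Lrrc8a (0.154) were also lost after median centring, and that of Tmem38a in the mean of its probe sets (0.38, adjusted p = 0.122). The remaining rise, outside the naming rule, was that of Lrrc8e (0.35, adjusted p = 0.0413). Both of its group means, 3.59 in L-GMPs and 3.24 in GMPs, lay below the lower quartile of the arrays, so the size is uncertain.

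Of 11 measured genes of the sodium pump and ion gradients, 3 fell and 0 rose (27.3%, against 12.1% of all genes called and 7.27% lower). Slc12a2, the sodium-potassium-chloride cotransporter, had 4.88, 5.91, 4.94 and 4.57 in L-GMPs and 6.98, 7.13, 6.70 and 7.12 in GMPs. It fell by 1.91 (SE 0.25, 3.76-fold, adjusted p = 0.000597), with L-GMP replicate B nearest the GMP arrays. Atp1b2, a beta subunit of the sodium pump, fell by 1.13 (SE 0.13, adjusted p = 0.000316), and Stk39, a kinase that activates SLC12A2, fell by 0.61 (adjusted p = 0.00711). The mean of the Stk39 probe sets lost the call (-0.28, adjusted p = 0.0504).

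Of 15 genes of extracellular ATP handling 3 fell and 1 rose (26.7%, against 12.1% of all genes). P2ry14, the receptor for UDP-glucose, had 3.22, 3.01, 2.75 and 3.54 in L-GMPs and 5.77, 6.27, 5.77 and 5.93 in GMPs. It fell by 2.81 (SE 0.18, 6.99-fold, adjusted p = 2.70e-06), to L-GMP values below the lower quartile of the arrays, so the size is uncertain. P2ry13, an ADP receptor, fell by 0.91 (adjusted p = 0.00505). Entpd1 encodes CD39, which degrades extracellular ATP, and fell by 0.83 (SE 0.11, adjusted p = 0.000735). The mean of its probe sets gave -0.41 (adjusted p = 0.0125). Pycard, the inflammasome adaptor, rose by 0.56 (adjusted p = 0.0401), a call lost on leaving out each array in turn other than L-GMP replicate D (0.0578 to 0.108). The mean of the Pycard probe sets lost it as well (0.38, adjusted p = 0.221). Nlrp3, the sensor that P2RX7 activates, had a difference of 0.82 and did not pass (adjusted p = 0.14). Casp1 (-0.23) and Il1b (-0.14) did not pass either.

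**Figure D5:**
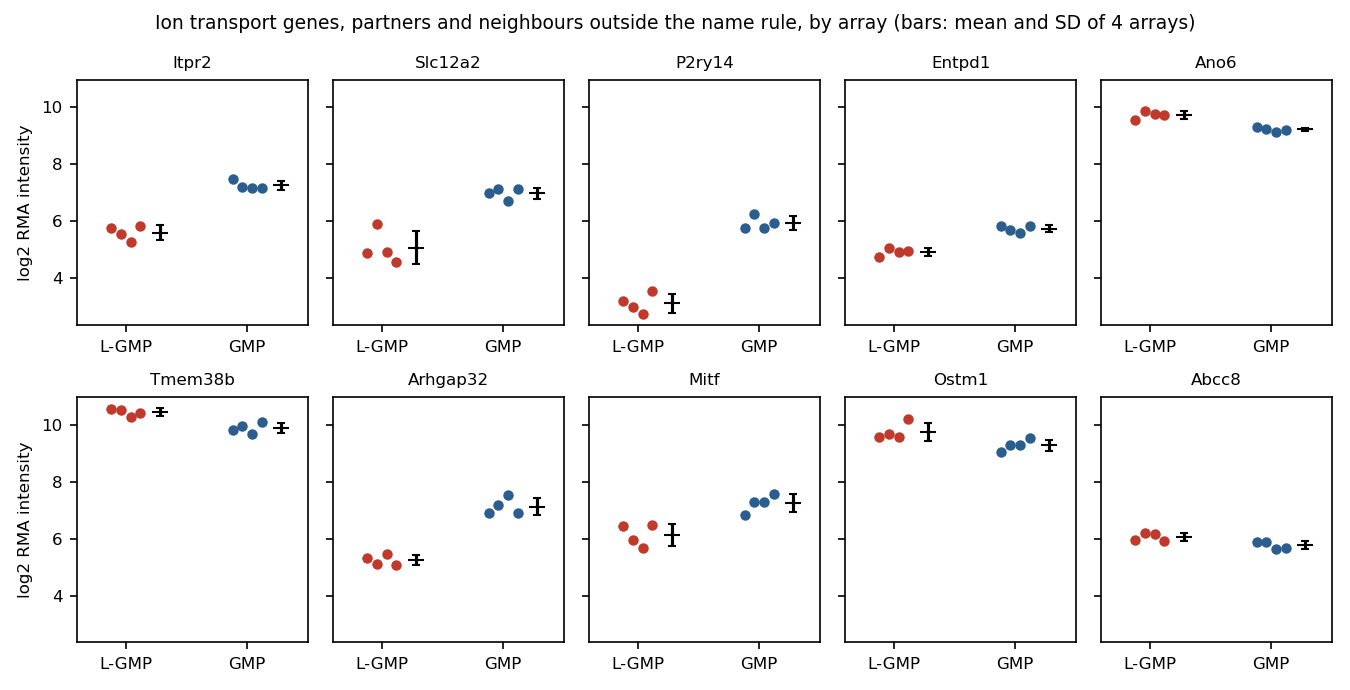
Log2 RMA intensity on each array of 10 genes outside the name rule, L-GMP in red and GMP in blue, with the mean and SD of 4 arrays. Itpr2, Slc12a2, P2ry14, Entpd1, Arhgap32 and Mitf are lower on all L-GMP arrays than on any GMP array, and Ano6 and Tmem38b are higher. Ostm1 and Abcc8 are also higher on all L-GMP arrays, by a narrow gap, but did not pass the threshold.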

How the data were processed

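Per the submitters' processing notes, the deposited intensities were made with RMA (background correction, normalization between arrays and a summary per probe set), version not given in the sources used here. They are on a linear scale, from 3.54 to 29746.73, read from the values, with 0 unused columns. The labels name a whole transcript assay, but the probe set names belong to a 3' expression array, and this could not be settled.

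Log2 was taken. Of 45101 probe sets, 64 controls were left out, and of the rest 34945 had 1 gene symbol in the platform annotation, 932 several and 9160 none. The brightest probe set represented each of 18193 genes. All 156 members matched RefSeq by Entrez identifier, with 0 symbols changed. The test was limma 3.58.1 (R 4.3.3, lmFit and eBayes, 2-sided) on group with Benjamini-Hochberg adjustment over all genes, tested on simulated data. The number of arrays limits the precision. Values for other probe sets of a gene are from a fit over every probe set.

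The members and lists were chosen with earlier results of these data known. Named were all members past the threshold, the brightest of each family, the largest change of a family without a call, a list of members known in blood cells, and up to 6 called genes of each other list. Clcn1, Clcn2, Clcn4, Kcnj1, Kcnj3, P2rx3, Scnn1b, Scnn1g, Cacna1b, uncalled genes of the other lists, Lrrc8e, partner and neighbour genes and factor genes were added after values were seen. Alternatives were other scalings, filters on dim genes, probe set rules, priors, array weights, a replicate block, a pseudocount of 16 and left-out arrays. Leaving out L-GMP replicate B for the single Cacna1b probe sets was chosen after seeing the data.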

Additional observations from a re-analysis of the deposited data

Results flagged for a closer look

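In 2 of 78 groups of 4 arrays behind the named members, an array lay far from the other 3, and both were L-GMP replicate B. In P2rx7 it stood at 4.88, against 5.85 to 6.04 on the other L-GMP arrays. In Kcna3 it stood at 5.385, against 6.32 to 6.42, and without it the Kcna3 difference was -0.07 in place of -0.32. By Dixon's criterion chance flags about 1 in 20 groups, and over all 156 members 24 of 312 groups (7.69%) met it.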

How the results depend on the processing

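Of the 11 ion channel genes called, Cacnb2, Clcn7, Kcnj11, Kcnj5, P2rx4, P2rx7 and Scnn1a passed in the same direction under every alternative that tested them (18 or 19 each). For the fit over every probe set, this counted only the probe set that represents the gene. The other probe sets of Kcnj5 and Kcnj11 did not pass there. Clcn3 and Kcnk5 lost the call only in the mean of probe sets. Clcn6 lost it only without both arrays that stood apart, L-GMP replicate B with GMP replicate D (0.45, adjusted p = 0.0673). Trpm2 lost it under 9 of 19, and 0 reversed. Over all genes, 4254 probe sets passed when each was tested, and leaving out an array gave 1411 to 2388 genes (1411 without GMP replicate B, 1425 without GMP replicate D). For the members, 22 passed after median centring (16 higher; over all genes 3084, 70.1% higher), 17 after quantile normalization (11 higher; over all genes 2531, 49.5% higher), 17 with array weights (8 higher; over all genes 3068, 41.6% higher), 7 of 31 without the dimmest 50% of genes (2 lower) and 24 of 329 probe sets (14 higher, 10 lower). Leaving out an array gave 10 to 14 calls, 4 to 7 higher and 6 to 8 lower. Groups without overlap were 36 after centring, 8 without the dimmest 50%, 48 probe sets, 38 without both arrays that stood apart and 24 to 38 without a single one (38 without GMP replicate A). The calcium list gave 5 after centring and without the dimmest 25% of genes, 12 probe sets and 2 to 4 without an array. The other channels gave 4 without both arrays and 3 to 7 without one (3 without L-GMP replicate A or GMP replicate C, 4 without L-GMP replicate B or GMP replicate B or D). The ion gradient list gave 1 without the dimmest 50% and 5 probe sets, and the ATP list gave 1. The filters test fewer genes, and testing each probe set counts a gene more than once. Leaving out arrays can only keep or raise the count of genes without overlap. The cause of the other shifts was not tested.

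With the letter as a replicate block, 1760 genes and 10 members passed. The letters are not said to pair arrays: deviations of arrays with the same letter correlated at -0.05, -0.01, -0.07 and 0.11, and of the 4 L-GMP arrays only replicate D correlated best with the GMP array of its own letter. Signal limits the dim members: 61 of 156 lay among the dimmest 25% of all genes.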
